A study of Arabidopsis thaliana with 5 samples.

Results

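The MCM helicase and the proteins that load or assist it were followed in RNA from sorted root nuclei of Arabidopsis thaliana. They are 10 genes chosen by locus, out of 33602 loci in the deposited tables: MCM2 to MCM7, ETG1, CDC45, CDT1A and CDT1B. All 10 were found. The nuclei came from 0.5 cm root tips of seedlings grown for 5 days, which were turned into protoplasts before nuclei were sorted. All seedlings held a construct with GUS and GFP under the SMR1 promoter, and the sort took 120000 nuclei with GFP signal per library. There were 2 libraries from Col-0, replicates 2 and 4, and 3 from the smr1 mutant, replicates 1, 2 and 4. Both genotypes held the construct, so the nuclei are those in which its promoter was active and not a single cell type. The smr1 allele is not given in the sources used here. SMR1 inhibits cyclin-dependent kinases and has a role in the switch to endoreplication, in which cells go through rounds of DNA replication without mitosis, and the comparison addresses how transcripts differ in such nuclei when it is mutated.

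Before each round of DNA copying, the origin recognition complex and CDC6 mark the origins, and CDT1 brings the ring of MCM2 to MCM7 onto the DNA there. In S phase, CDC45 and the GINS complex join the ring and turn it into the active helicase that unwinds the DNA ahead of the polymerases. ETG1 is a binding partner of the MCM ring that was found in Arabidopsis as a target of E2F, the transcription factor family of S phase genes, and it is needed for sister chromatid cohesion. In the root, dividing cells of the meristem and cells that endoreplicate above it both need origins to be licensed in this way.

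In short, the 6 ring genes had higher levels in each mutant library than in any Col-0 library, by 1.48 to 1.85-fold in the fit, as had ETG1 and CDC45 by smaller folds. Of all tested genes, 13.7% stood apart in this direction. CDT1A had the highest level per length of the 10 genes and overlapped between the genotypes, and CDT1B was close to the floor of detection. None of the genes passed the threshold when p-values were adjusted over all genes, which by edgeR 1 of 20151 tested genes did.

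Totals ranged from 24918795 to 26823753 reads per library. SMR1 itself had 267 and 577 reads in replicates 2 and 4 of Col-0, against 154, 127 and 192 in replicates 1, 2 and 4 of smr1, so its level was lower in each library labelled smr1. AT3G10527 lies opposite SMR1 and shares 71.99% of its stretches of 31 nt, and since the strand setting is not given, reads from either strand cannot be told apart there. From here on, a pair of values for Col-0 stands for replicates 2 and 4 and values for the mutant libraries for replicates 1, 2 and 4, in that order. The 8 root cell markers, such as the secondary wall cellulose synthases CESA4 and CESA8 and the Casparian strip protein CASP1, were detected in every library. Their summed levels were 618 to 619 CPM (reads per 1e6 reads of the TMM-scaled library size) in Col-0 and 496 to 551 CPM in smr1. Most of this sum came from CESA4 and CESA8, so it does not stand for the 8 markers as a group. The libraries did not sort by genotype over all genes. Col-0 replicate 2 differed less from smr1 replicate 2 (chi-square per degree of freedom of 14.8) than from Col-0 replicate 4 (43.8). Meristem markers were uneven: PLT1, PLT2 and WOX5 together had 6.04 and 1.72 CPM in Col-0, and 3.32, 7.11 and 2.76 CPM in the mutant libraries. In bulk RNA, a lower share of cells that express a gene and less RNA per cell cannot be told apart.

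All 10 genes lie on the nuclear chromosomes, and coordinates are those of the RefSeq annotation of TAIR10.1, the assembly used here. MCM2 (AT1G44900) lies on chromosome 1 from 16970214 to 16974753 on the plus strand, with 16 exons. MCM3 (AT5G46280) has 15 exons on chromosome 5 from 18769649 to 18773706, and MCM6 (AT5G44635) has 18 on the same chromosome from 18006212 to 18010667, both on the minus strand. MCM4 (AT2G16440) and MCM5 (AT2G07690), with 18 exons each, lie on the minus strand of chromosome 2, from 7126279 to 7130729 and from 3522984 to 3527500. MCM7 (AT4G02060), named PROLIFERA in plants, has 15 exons on chromosome 4 from 900636 to 905591 on the plus strand.

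The other 4 genes are all on the plus strand. ETG1 (AT2G40550) has 13 exons on chromosome 2 from 16934621 to 16938272, and CDT1A (AT2G31270) has 7 on that chromosome from 13328862 to 13331831. CDC45 (AT3G25100) is a single exon on chromosome 3 from 9143916 to 9146236, and CDT1B (AT3G54710) has 7 exons there from 20251812 to 20254323. The coding lengths of the first models in the deposited tables equal those of RefSeq for all 10. No stretch of 31 nt of their coding sequences occurs in the coding sequence of another locus on either strand, so reads are not expected to be divided with another coding sequence. Non-coding loci were not compared. MCM7 overlaps the protein-coding gene AT4G02050 on the opposite strand, in which its annotated start lies, and a tRNA gene on its own strand, and ETG1 overlaps the end of AT2G40540 on the same strand.

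The sequences before the annotated starts of the 6 ring genes and of CDT1A are shown. The groups stood apart in the ring genes and overlapped in CDT1A. They stood apart in ETG1 and CDC45 too, whose sequences are not printed, so the pattern across libraries was not particular to the ring genes. Each line gives the 200 bases that end just before the annotated start, 5′ to 3′ in the direction of the gene, from the TAIR10.1 genome. Capitals mark matches, on either strand, to 4 letterings of the E2F motif: TTTCCCGC, TTTGGCGC, TTTCGCGC and TTTGCCGC.
MCM2: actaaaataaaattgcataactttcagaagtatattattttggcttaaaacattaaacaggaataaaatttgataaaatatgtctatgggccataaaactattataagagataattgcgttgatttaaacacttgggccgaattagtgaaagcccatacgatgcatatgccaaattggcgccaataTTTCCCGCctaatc
MCM3: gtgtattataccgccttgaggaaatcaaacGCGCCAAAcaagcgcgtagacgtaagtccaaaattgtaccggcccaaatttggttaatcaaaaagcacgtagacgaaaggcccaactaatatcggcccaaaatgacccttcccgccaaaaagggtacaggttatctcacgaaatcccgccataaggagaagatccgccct
MCM4: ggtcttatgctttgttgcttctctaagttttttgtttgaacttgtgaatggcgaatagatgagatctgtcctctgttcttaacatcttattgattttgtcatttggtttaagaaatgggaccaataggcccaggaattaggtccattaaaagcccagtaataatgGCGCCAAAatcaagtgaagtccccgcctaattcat
MCM5: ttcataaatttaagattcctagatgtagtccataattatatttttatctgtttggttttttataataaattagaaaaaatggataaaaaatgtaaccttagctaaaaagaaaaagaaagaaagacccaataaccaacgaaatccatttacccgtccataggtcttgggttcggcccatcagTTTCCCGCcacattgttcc
MCM6: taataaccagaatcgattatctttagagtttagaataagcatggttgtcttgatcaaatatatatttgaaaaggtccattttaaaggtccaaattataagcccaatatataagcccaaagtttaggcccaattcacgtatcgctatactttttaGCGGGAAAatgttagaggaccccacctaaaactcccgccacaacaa
MCM7: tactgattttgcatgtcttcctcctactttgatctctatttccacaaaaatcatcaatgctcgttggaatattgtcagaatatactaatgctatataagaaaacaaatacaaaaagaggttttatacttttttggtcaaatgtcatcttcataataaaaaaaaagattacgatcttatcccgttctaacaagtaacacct
CDT1A: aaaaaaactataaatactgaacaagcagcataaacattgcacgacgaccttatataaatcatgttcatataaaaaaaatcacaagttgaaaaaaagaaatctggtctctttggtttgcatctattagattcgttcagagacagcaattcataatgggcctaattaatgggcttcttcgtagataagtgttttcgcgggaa

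The printed stretches are chr1:16970014-16970213 (+) for MCM2, chr5:18773707-18773906 (-) for MCM3, chr2:7130730-7130929 (-) for MCM4, chr2:3527501-3527700 (-) for MCM5, chr5:18010668-18010867 (-) for MCM6, chr4:900436-900635 (+) for MCM7 and chr2:13328662-13328861 (+) for CDT1A. Searched over the 250 bases before and 50 after each start, MCM2 to MCM6 held 1 match each, and MCM7, ETG1, CDC45, CDT1A and CDT1B held none, which is 5 of 10 genes. Near forms of the 4 letterings were not counted, so a gene without a match is not shown to lack an E2F site. The printed stretch of CDT1A holds tttcgcgg, which differs from the third lettering in its last letter only, and those of MCM2 and MCM3 hold unmarked near forms too. Of 27443 promoters of protein-coding genes in the same window, 1.76% held a match, 0.8% for the first lettering, 0.43% for the second, 0.22% for the third and 0.35% for the fourth. The letterings can share bases where they run in opposite directions, which none of the 5 matches did. The letters TTTCCCGC were found in MCM2, MCM5 and MCM6 and TTTGGCGC in MCM3 and MCM4, and 4 of the 5 matches began within 46 bases before the start, with MCM3 at 170 bases. The 250 bases before the start of ETG1 lie in an annotated exon of AT2G40540, and those before MCM7 lie within AT4G02050, so these windows are not intergenic. The site II letters TGGGCC or TGGGCT, searched on both strands after the sequences were seen, occurred in 7 of the 10, all but MCM7, ETG1 and CDC45, against 21.72% of promoters. The share of genes with an E2F match was 5 of 9 for origin recognition and CDC6, 5 of 11 for the replicative polymerases, 2 of 8 for GINS and other helicase factors, 2 of 6 for sister chromatid cohesion and 1 of 6 for E2F, DP and RBR1. A match describes letters and says nothing of binding, and these windows start from annotated gene starts that were not checked in these data.

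**Figure D1:**
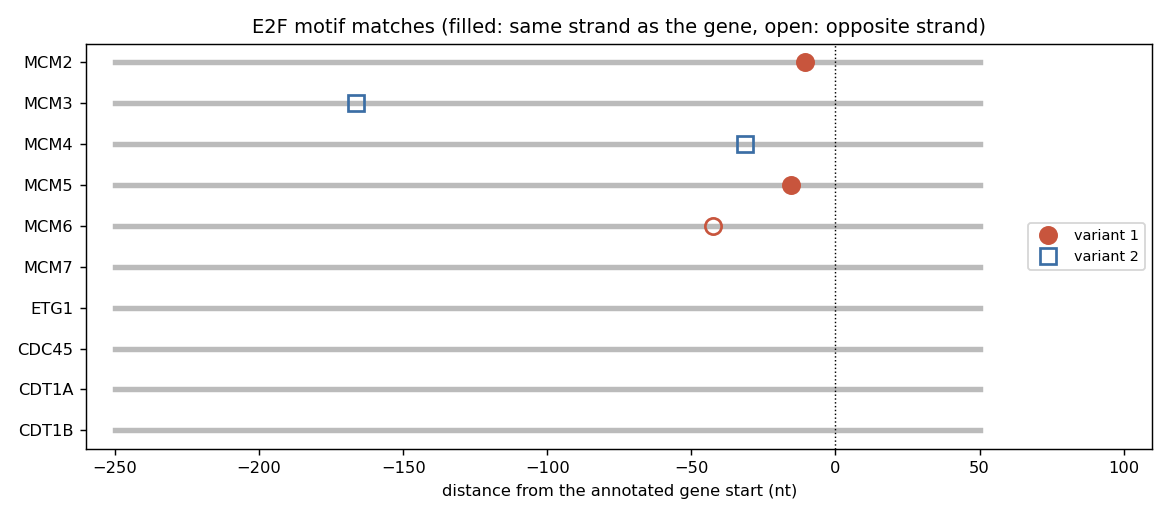
E2F motif matches from 250 nt before to 50 nt after the annotated gene start, 1 row per gene; the x axis is the distance from the start. Circles (variant 1) and squares (variant 2) stand for the first and second lettering named in the text, filled on the strand of the gene and open on the opposite strand; MCM2 to MCM6 have 1 match each and the other 5 genes none.

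Levels can be set side by side between genes per length, as TPM (read counts per effective length, scaled to a fixed total, deposited by the authors), summed over the models of a locus. CDT1A was the highest of the 10 in all 5 libraries, with 7.05 ± 0.49 TPM in Col-0 (SD, n = 2) and 8.14 ± 1.93 TPM in smr1 (SD, n = 3). ETG1 had 1.997 ± 0.42 and 2.72 ± 0.07 TPM and CDC45 had 1.45 ± 0.37 and 2.11 ± 0.17 TPM in Col-0 and smr1. MCM6 was the ninth and CDT1B the lowest in every library. The genes between them changed places from library to library: ETG1 stood second in Col-0 replicate 2 and smr1 replicate 1 but sixth in smr1 replicate 4.

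The ring has 1 copy of each subunit as protein, which was not measured here. The transcripts were not at equal levels. MCM6, the lowest, had 0.44 ± 0.01 TPM in Col-0 and 0.83 ± 0.13 TPM in smr1, and MCM2 followed with 0.94 ± 0.11 and 1.81 ± 0.62 TPM. MCM3, MCM4, MCM5 and MCM7 had Col-0 means from 1.62 to 1.89 TPM and smr1 means from 2.52 to 3.25 TPM, and within each genotype neighbours in the order of these 4 differed by less than the larger of their SDs. The highest ring gene was at 4.53 and 4.19 times the lowest in Col-0, and at 3.65, 3.96 and 4.23 times in the mutant libraries. As a share of the summed TPM of the 6 genes, MCM6 made up 4.7% and 6.1% in Col-0 and 5.4% to 6.0% in smr1. The shares of the 6 genes overlapped between the genotypes except for that of MCM3, which was 20.4% and 19.0% in Col-0 and 18.4%, 18.7% and 15.8% in the mutant libraries. The nearest of these values, 19.0% and 18.7%, were close, and the difference in share was not tested. The sum itself was 9.09 and 7.31 TPM in Col-0, and 12.24, 13.07 and 18.06 TPM in the mutant libraries.

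MCM2, whose N-terminal tail binds histones in yeast and animals, had 105 and 95 reads in Col-0 and 141, 162 and 278 reads in the mutant libraries. In CPM these were 4.31 and 3.56 against 5.51, 5.995 and 10.22. The groups did not overlap, and smr1 replicate 4 stood well above the others of its genotype. The fitted log2 fold change (smr1 relative to Col-0) was 0.88 ± 0.31 (SE, edgeR adjusted p = 0.725), and 0.55 when smr1 replicate 4 was left out.

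MCM5, which with MCM2 forms the gate through which the ring opens onto DNA in yeast, showed a like spread. It stood at 6.29 and 4.42 CPM in Col-0 (153 and 118 reads), and 7.51, 9.40 and 12.79 CPM in the mutant libraries (192, 254 and 348 reads). The groups did not overlap, and the gap between Col-0 replicate 2 and smr1 replicate 1 was smaller than the spread within smr1. Its log2 fold change of 0.89 ± 0.28 (SE, edgeR adjusted p = 0.725) was the largest among the 9 genes tested.

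MCM7, known in Arabidopsis for its need in embryo and female gametophyte development, had 6.08 and 4.12 CPM in Col-0 (148 and 110 reads). The mutant libraries had 7.90, 7.55 and 11.98 CPM (202, 204 and 326 reads). The groups again stood apart and smr1 replicate 4 was the highest. Fitted, this was a log2 fold change of 0.84 ± 0.28 (SE, edgeR adjusted p = 0.725). Its 2 models have the same coding length and each was given the same number of reads, so only their sum is used.

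MCM6, the least abundant ring gene, had 39 and 43 reads in Col-0 and 65, 74 and 95 reads in the mutant libraries. Its levels were 1.602 and 1.612 CPM in Col-0, and 2.54, 2.74 and 3.49 CPM in the mutant libraries. The groups were apart. The near equality of the Col-0 pair is finer than its counting error, since 39 reads have an exact Poisson 95% interval of 27.7 to 53.3 reads. At 0.86 ± 0.24 (SE), MCM6 had the smallest unadjusted p of the 9 genes tested (0.0104, edgeR adjusted p = 0.725).

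MCM4 and MCM3 had smaller differences. MCM4, which with MCM6 and MCM7 forms a subcomplex with helicase activity in animals, had 7.31 and 6.90 CPM in Col-0 (178 and 184 reads), and 9.43, 9.66 and 13.20 CPM in the mutant libraries (241, 261 and 359 reads). Its log2 fold change was 0.60 ± 0.20 (SE). MCM3, the subunit through which CDT1-bound rings are first brought to the origin complex in yeast, had 6.41 and 4.69 CPM in Col-0 (156 and 125 reads), and 7.24, 7.96 and 9.45 CPM in the mutant libraries (185, 215 and 257 reads). Its log2 fold change was 0.57 ± 0.21 (SE), and 0.35 when Col-0 replicate 4 was left out. In both genes the groups did not overlap, and the edgeR adjusted p was 0.725 for each.

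**Figure D2:**
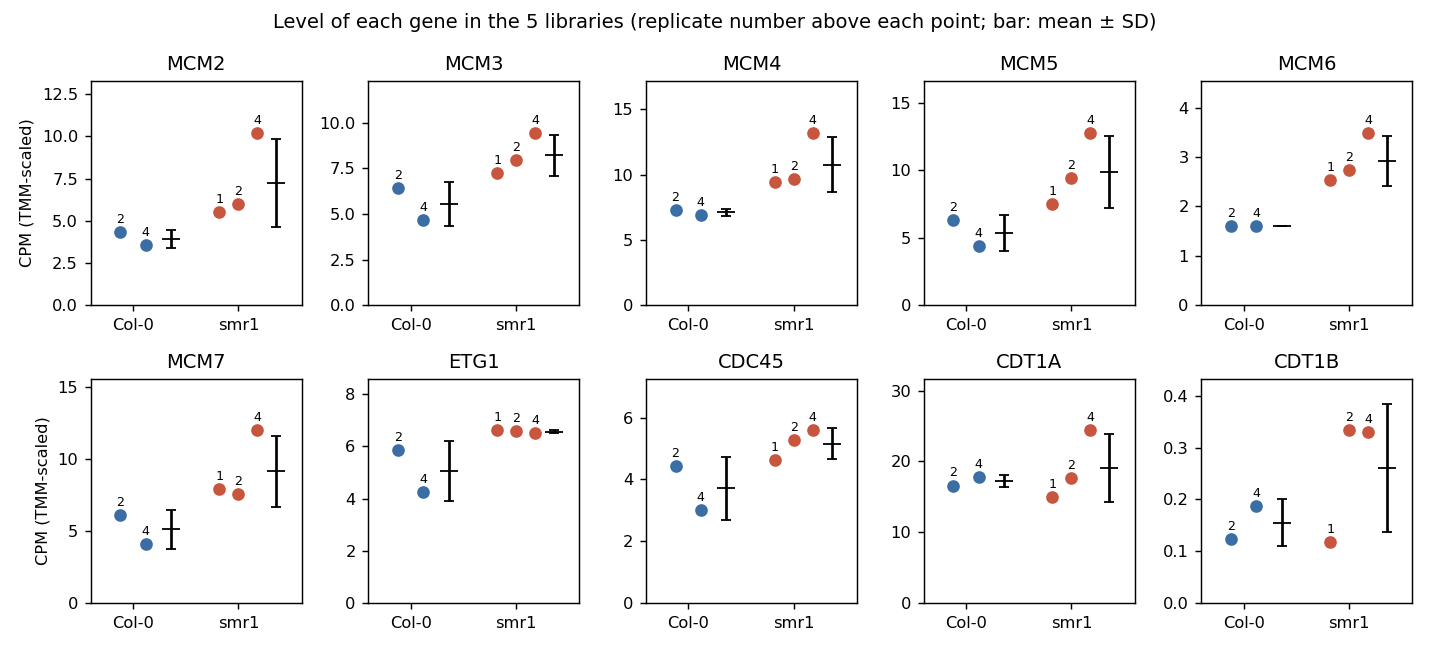
CPM (TMM-scaled, y axes from 0, one scale per gene) of the 10 genes in each library, Col-0 in blue and smr1 in red, with the replicate number above each point and the group mean ± SD as a black bar. In the 6 ring genes, ETG1 and CDC45 all smr1 points lie above both Col-0 points; smr1 replicate 4 is the highest library in 8 of the 9 tested genes, and the exception is ETG1.

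ETG1, a partner of the ring, had 5.87 and 4.24 CPM in Col-0 (143 and 113 reads), and 6.61, 6.59 and 6.51 CPM in the mutant libraries (169, 178 and 177 reads). The smr1 libraries, at 6.57 ± 0.05 CPM (SD, n = 3), lay above both Col-0 libraries, of which replicate 4 was the lower. This SD is below the counting error of such read numbers, so the closeness of the smr1 values is finer than the data can show. The log2 fold change was 0.38 ± 0.20 (SE, edgeR adjusted p = 0.733), and leaving out Col-0 replicate 4 or 2 gave 0.15 or 0.63.

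CDC45, the factor that joins the ring in S phase, had 108 and 80 reads in Col-0, against 118, 143 and 152 in the mutant libraries. This came to 4.44 and 3.0 CPM against 4.62, 5.29 and 5.59 CPM. The lowest smr1 library was only just above the higher Col-0 library. Its log2 fold change was 0.48 ± 0.23 (SE, edgeR adjusted p = 0.729). Leaving out replicate 4 of Col-0 gave 0.21 and leaving out its replicate 2 gave 0.78.

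The loading factor CDT1A, which in Arabidopsis also takes part in plastid division through the plastid protein ARC6, was the one tested gene whose groups overlapped. It had 404 and 475 reads in Col-0 and 384, 478 and 663 reads in the mutant libraries, or 16.6 and 17.8 CPM against 15.02, 17.7 and 24.4 CPM. Replicate 1 of smr1 was the lowest of the 5 libraries and replicate 4 of smr1 the highest. Its log2 fold change was 0.15 ± 0.22 (SE, edgeR adjusted p = 0.909), and -0.07 when smr1 replicate 4 was left out. Leaving out replicate 1 of smr1 gave 0.29, and leaving out replicate 2 of Col-0 gave 0.09. The mean TPM of the ring genes was 0.226 and 0.165 of that of CDT1A in Col-0, and 0.312, 0.286 and 0.293 of it in the mutant libraries, so that this ratio did not overlap between the genotypes. It was formed after the values were seen and was not tested.

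CDT1B, the second Arabidopsis CDT1 gene, had 3 and 5 reads in Col-0 and 3, 9 and 9 reads in the mutant libraries. With 3 reads taken as the floor, 1 library in each genotype was at the floor, and it did not pass the expression filter. The exact Poisson 95% interval was 0.62 to 8.77 reads for 3 reads and 4.12 to 17.1 reads for 9 reads. A difference in CDT1B was not tested in the main fit, and a small one could not be seen at this depth. CDT1A had 112.4 and 79.2 times the TPM of CDT1B in Col-0, and 106.8, 44.3 and 61.5 times in the mutant libraries, ratios whose spread follows the few CDT1B reads.

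Of the 10 genes, 9 passed the filter and were tested, among 20151 genes. The adjusted p passed 0.05 for 0 of the 9 in either direction by edgeR, against 1 gene higher (0.00496%) and 0 lower (0%) over all genes, and DESeq2, which called 30 genes higher (0.169%) and 11 lower (0.0618%), called 0 of them. At an unadjusted p under 0.05, 6 of the 9 were higher and 0 lower, namely MCM2 to MCM7, against 3.96% of all genes higher and 2.89% lower. All 9 log2 fold changes were above 0, against 51.2% of all genes. The lowest smr1 library stood above the higher Col-0 library in 8 of the 9, against 13.7% of all genes, and the reverse held in 0 of the 9, against 10.1%. The median log2 fold change of the 9 was 0.60, a fold of 1.51, beside 0.01 over all genes, and that of the ring genes was 0.85. These genes share libraries and are not independent of each other, and with 2 against 3 libraries an exact permutation test of a single gene cannot go below p = 0.1.

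**Figure D3:**
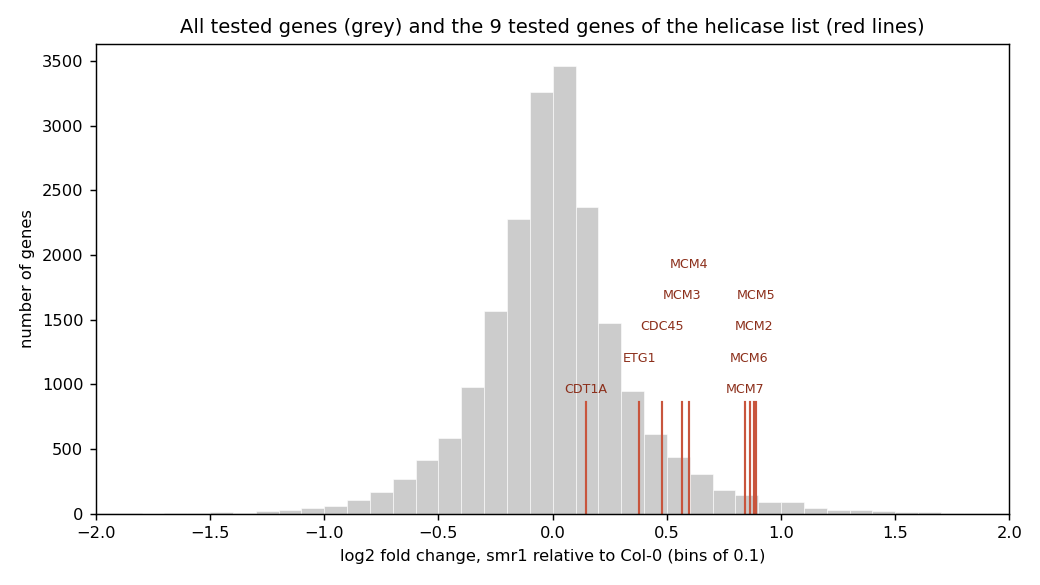
Number of genes (y axis) in bins of 0.1 of the log2 fold change of smr1 relative to Col-0 (x axis) for the 20151 tested genes, with 34 genes beyond ±2 not drawn. Red lines mark the 9 tested genes, from CDT1A at 0.15 to MCM5 at 0.89, all to the right of 0.

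Among all tested genes, MCM2, MCM5, MCM6 and MCM7 lay at the 97.7th to 98.0th percentile of log2 fold change. MCM3 was at 94.3, MCM4 at 94.9, CDC45 at 92.1, ETG1 at 88.9 and CDT1A at 72.1. Their levels were ordinary, with mean CPM from the 25.8th percentile for MCM6 to the 61.5th for CDT1A. The 9 tested genes had from 39 to 663 reads per library.

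The pattern over libraries had 2 parts. Replicate 4 of smr1 was the highest library in 8 of the 9 genes, all but ETG1, while 26.7% of all tested genes had their highest level in it. Replicate 4 of Col-0 was the lowest in 7 of the 9, all but MCM6 and CDT1A, while this held for 23.2% of all genes. On the log2 scale, with each gene centred on its own mean over 5 libraries, the median profile of the 9 genes was -0.22 and -0.57 in Col-0, and 0.06, 0.16 and 0.54 in the mutant libraries. The mutant libraries alone spanned 0.06 to 0.54 on this scale. MCM3 lay nearest to this profile, with a root mean square distance of 0.07, and CDT1A farthest, with 0.30.

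**Figure D4:**
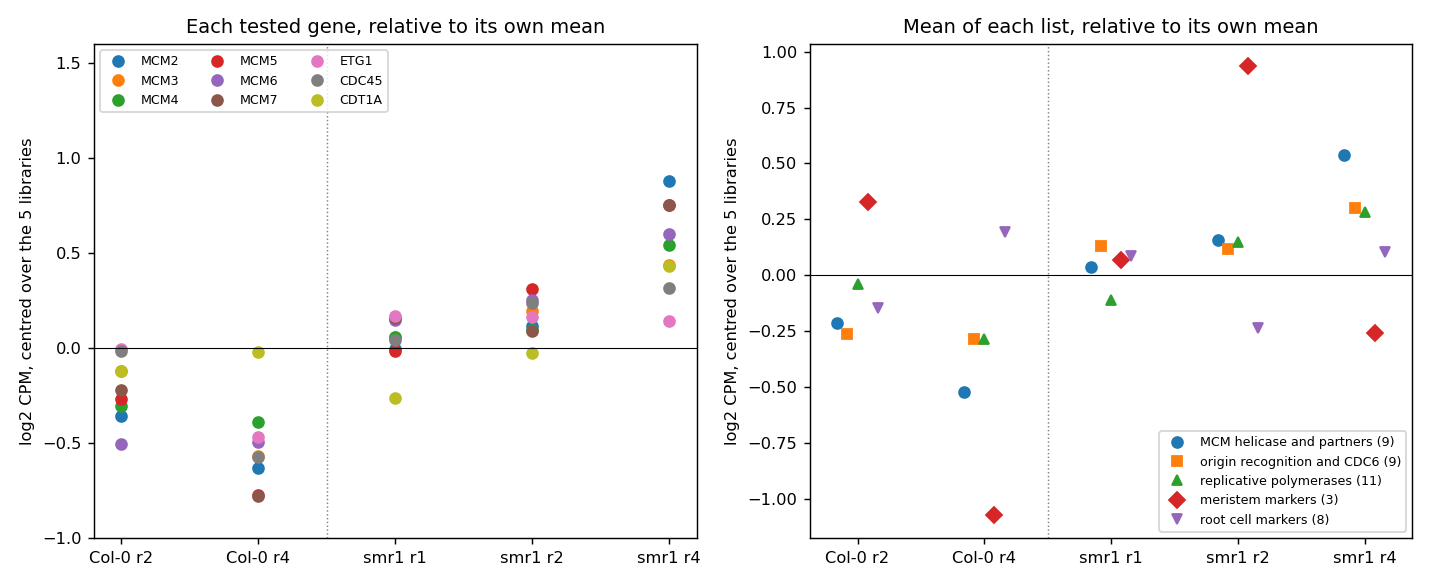
Left, log2 CPM of each of the 9 tested genes in each library (r, replicate), centred on its own mean; right, the mean of such values over each list, with the number of genes in brackets. On the left the smr1 replicate 4 values reach 0.88 for MCM2 and stay at 0.14 for ETG1; on the right the meristem markers are highest in smr1 replicate 2 and lowest in Col-0 replicate 4.

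The mean level of the 9 genes was set beside the marker lists on the same scale. It was -0.21 and -0.52 in Col-0, and 0.04, 0.16 and 0.54 in the mutant libraries. The 3 meristem markers had 0.33 and -1.07 in Col-0 and 0.07, 0.93 and -0.26 in smr1, so both lists were low in Col-0 replicate 4. In smr1 replicate 4, where the helicase genes were highest, each of the 3 meristem markers had its nominally lowest CPM among the mutant libraries. The margins below smr1 replicate 1 were within counting error. Replicate 4 had 41 reads against 40 for PLT1, 17 against 20 for PLT2 and 17 against 25 for WOX5. PLT1 had 1.56, 2.33 and 1.51 CPM in the mutant libraries and PLT2 had 0.782, 0.814 and 0.625 CPM, all above both Col-0 libraries. WOX5 had 17 reads in smr1 replicate 4, as it had in Col-0 replicate 4. PLT1 and PLT2, transcription factors that maintain the meristem, did not overlap between the genotypes and were higher in smr1, with log2 fold changes of 0.84 and 1.41 (edgeR adjusted p = 0.725 for each), from 4 to 63 reads per library. In this direction 13.7% of all tested genes were apart. WOX5, a marker of the quiescent centre, overlapped between the genotypes, with 4.56 and 0.64 CPM in Col-0 and 0.98, 3.96 and 0.63 CPM in smr1. The 3 leaf photosynthesis markers had centred levels of -0.36 and -1.66 in Col-0 and 1.85, 1.75 and -1.58 in the mutant libraries, the widest span of the marker lists. CAB2, a chlorophyll-binding protein, had 4 and 2 reads in Col-0, against 56, 73 and 3 in the mutant libraries, and RBCS1A, a Rubisco small subunit, had 9 and 7 against 80, 108 and 8. Both were thus high in replicates 1 and 2 of smr1 and not in its replicate 4, where the helicase genes were highest, with log2 fold changes of 3.77 and 2.96 (edgeR adjusted p = 0.725 for each). Most of the summed level of this list, 5.21 to 30.9 CPM in Col-0 and 4.37 to 40.4 CPM in smr1, came from LHB1B2, which overlapped between the genotypes. No marker was at 0 in any library. CESA4 and CESA8, xylem markers that make up most of the root marker sum, were lower in each mutant library than in any Col-0 library. Their log2 fold changes were -0.26 and -0.28 (edgeR adjusted p = 0.725 for each). They were the only 2 of the 8 root cell markers whose groups stood apart, and 10.1% of all tested genes were apart with smr1 lower. Of the 8 log2 fold changes 3 were above 0, and their median was -0.06. The mean centred level of the 8 overlapped between the genotypes, at -0.146 and 0.194 in Col-0 and 0.085, -0.237 and 0.103 in the mutant libraries. The part of any of these cell types in the levels of the helicase genes was not tested.

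Likeness to the median profile was measured as the root mean square distance in centred log2 CPM over the 5 libraries. The 5 nearest genes outside the lists, among 17400 with a mean of at least 1 CPM, were AT4G18440, AT3G21540, AT5G15200, AT2G25210 and AT2G40590. Their distances were from 0.04 to 0.05. RefSeq names the products of AT5G15200, AT2G25210 and AT2G40590 as ribosomal proteins S4, L39 and S26e, that of AT4G18440 as an L-aspartase-like protein and that of AT3G21540 as a WD-40 repeat protein. AT5G15200, for example, had 77.4 and 57.1 CPM in Col-0 and 92.9, 93.0 and 121.8 CPM in the mutant libraries.

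The steps before and after loading were described from 5 other lists of 40 genes in all, each of them tested. By edgeR 0 of the 40 passed over all genes, while the unadjusted p was under 0.05 for 5 genes with higher and 0 with lower levels in smr1. Over all tested genes these shares were 3.96% and 2.89%. Log2 fold changes were above 0 in 35 of the 40, against 51.2% of all genes. The groups stood apart with smr1 higher in 14 of the 40 and with smr1 lower in 1, against 13.7% and 10.1%. The median of the 40 was 0.24, lower than that of the 9 helicase genes, a difference that was not tested.

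In the origin recognition and CDC6 list, 8 of 9 values were above 0 and the median log2 fold change was 0.48. ORC3, a subunit of the origin recognition complex, had 0.62 and 0.75 CPM in Col-0 and 1.45, 1.81 and 2.10 CPM in smr1, a log2 fold change of 1.38 ± 0.31 (SE). CDC6, the loading factor that acts with CDT1, had 2.79 and 2.40 CPM in Col-0 and 4.22, 5.40 and 5.11 CPM in smr1, a log2 fold change of 0.92 ± 0.21 (SE). The edgeR adjusted p was 0.725 for each. ORC1A overlapped between the genotypes, with a log2 fold change of -0.06, beside 0.48 for its paralogue ORC1B, and the pair share 9.17% and 9.12% of their stretches of 31 nt, so their reads are divided in part by estimate. Without smr1 replicate 4 the median of the list was 0.15.

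Of the GINS and other helicase factors, all 8 values were above 0, with a median of 0.19. MCM10, which helps to activate the loaded ring, had 5.75 and 5.70 CPM in Col-0 and 8.88, 7.70 and 10.59 CPM in smr1, a log2 fold change of 0.66 ± 0.19 (SE, edgeR adjusted p = 0.725). SLD5, of the GINS complex, had a value of 0.76 with an SE of 0.41, from 35 to 127 reads, and its groups overlapped. The other GINS genes PSF1, PSF2, TTN10 and AT3G55490 had values from 0.11 to 0.19, and TTN10 and AT3G55490 share 88.26% of their stretches of 31 nt and are uncertain individually. MCM8 and MCM9, relatives of the ring genes with roles in recombination, had 0.10 and 0.51. Without Col-0 replicate 2 the median of the list was 0.53.

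The polymerases that follow the helicase had a median of 0.37, with 10 of 11 values above 0. POLA2, a subunit of the priming polymerase alpha, and POLD2, a subunit of polymerase delta, had 0.78 with an SE of 0.29 and 0.72 with an SE of 0.27. TIL1, the catalytic subunit of polymerase epsilon, had 0.37, while its paralogue TIL2 had -0.65, from 9 to 28 reads. The pair share 5.58% and 5.61% of their stretches of 31 nt, so their reads are divided in part by estimate. Without Col-0 replicate 4 the median of the list was 0.17.

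The regulators of the E2F pathway, a list that holds both activators and repressors of S phase genes, were near 0 as a list. The median was 0.01, and 3 of 6 values were above 0. E2FA, an activating E2F, had 1.68 and 1.80 CPM in Col-0 and 2.19, 2.18 and 2.90 CPM in smr1, a log2 fold change of 0.48 ± 0.25 (SE, edgeR adjusted p = 0.733). RBR1, the retinoblastoma-related repressor that binds E2F, had 0.24 with an SE of 0.18, with overlapping groups. E2FB, E2FC, DPA and DPB had values from -0.09 to 0.08.

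In the list of sister chromatid cohesion, where ETG1 acts, the median was 0.16 and all 6 values were above 0. The cohesin subunits SMC1, SMC3 and SCC3 had 0.08, 0.01 and 0.03, each with an SE of 0.10 to 0.12, at levels of 35.6, 40.1 and 78.3 CPM in Col-0. CTF18, of the clamp loader of cohesion, and CTF7, the acetyltransferase that establishes it, had 0.30 and 0.25. AT3G42660 had 0.49 ± 0.21 (SE), with groups that did not overlap. Without Col-0 replicate 4 the median of the list was 0.009.

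**Figure D5:**
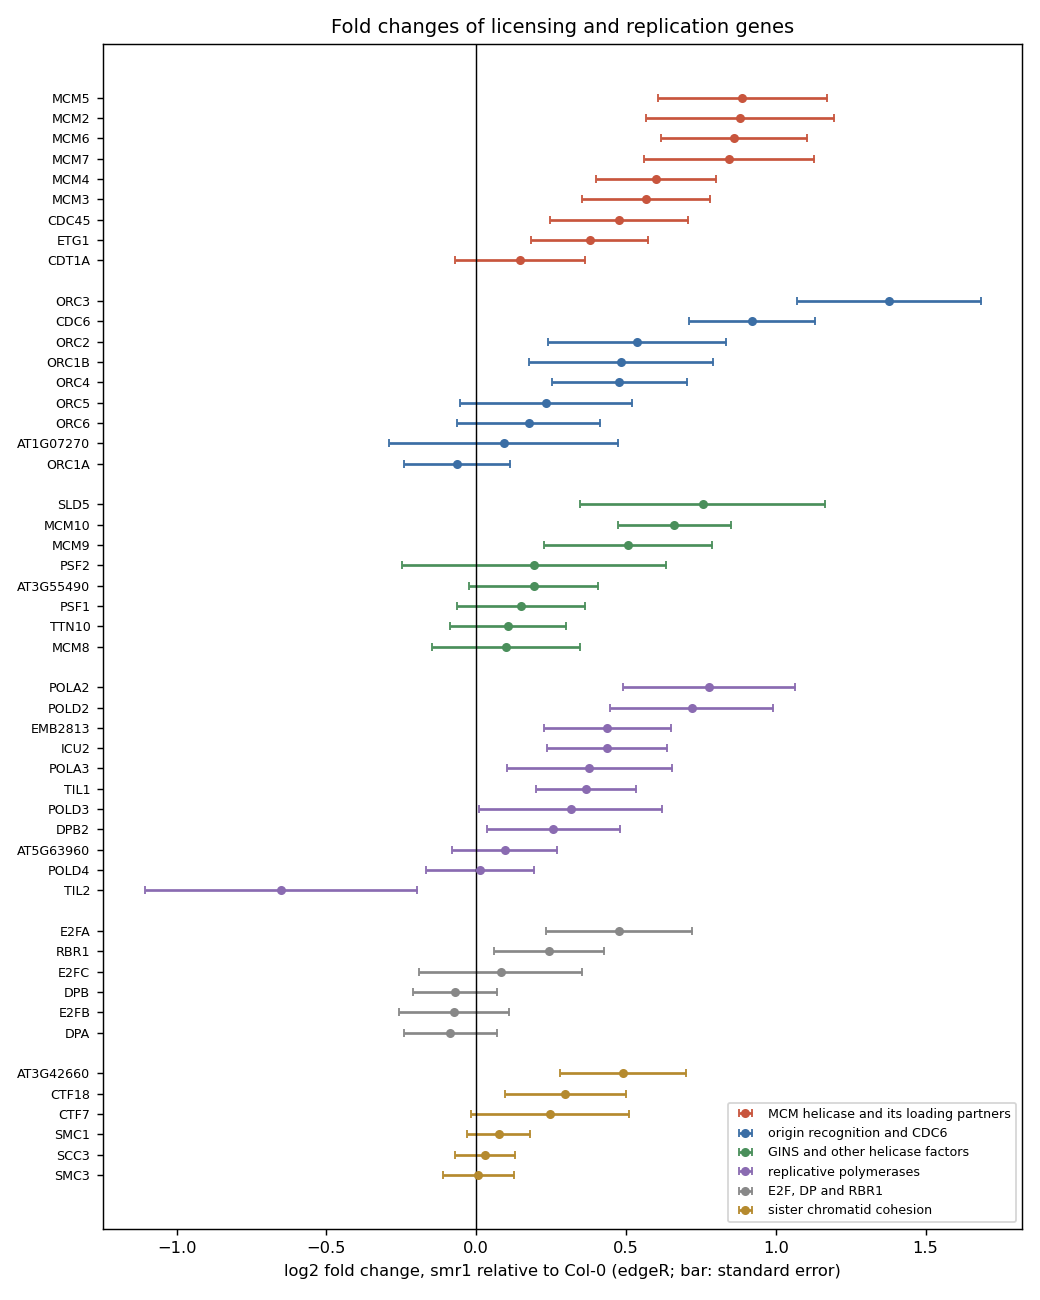
Log2 fold change of smr1 relative to Col-0 (x axis) with its standard error for each tested gene, grouped and coloured by list, the helicase genes at the top in red. Values of the ring genes run from 0.57 to 0.89, ORC3 reaches 1.38, and the cohesin subunits lie close to 0.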

How the data were processed

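The deposited expected counts, which need not be whole, and TPM values stand per transcript model under Salmon's column names, per the file headers. The submitters' processing notes name Salmon 0.7.2, CASAVA and TAIR10 but not what each was used for. The kit was stranded, per the labels, while the strand setting of the quantification and any filter on reads is not given in the sources used here. Effective lengths were used as deposited, and 93.36% of model lengths were multiples of 3, so most hold no untranslated region.

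Expected counts were summed per locus, rounded and tested with edgeR 4.0.16 in R 4.3.3: expression filter (minimum count 10, minimum total 15), TMM factors, a robust quasi-likelihood fit with genotype as its term, and Benjamini-Hochberg adjusted p-values over all tested genes at 0.05, two-sided, with 3 residual degrees of freedom. SE came from the F statistic. CPM values use TMM-scaled library sizes, and log2 levels a prior count of 1. The script was tested on simulated data. The floor is 3 reads per library, and intervals and the floor cover counting error only. No 2 libraries held the same values. The design text calls the libraries biological replicates.

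The genes and lists were chosen with earlier results of these data known. All genes of the helicase list are named, up to 4 per longer list, all of lists of 9 or fewer where useful, and like-pattern genes by distance. DESeq2 1.42.0, limma 3.58.1 (voom), RLE and upper-quartile factors, no filter, first models only, a replicate block and leaving out each library were the alternatives. The sequence tables used locus tags of TAIR10.1, and all 65 listed loci matched. Protein sequences were not used here.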

Additional observations from a re-analysis of the deposited data

How the results depend on the processing

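The values of the 9 tested helicase genes were refitted under 12 alternatives, 108 values in all. Of these 107 were above 0, 0 passed the threshold, and the smallest adjusted p was 0.318. The exception in direction was CDT1A, at -0.072 without smr1 replicate 4, within a range of -0.072 to 0.29 over the libraries left out. The median log2 fold change ran from 0.46 to 0.80 when 1 library was left out and from 0.58 to 0.67 otherwise. When a Col-0 library is left out, the remaining one is assumed to vary like the smr1 libraries.

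Over all genes, the count called higher was 1, against 3 without the expression filter, 30 by DESeq2, 0 by limma voom and 0 when any 1 library was left out, and 11 were called lower by DESeq2. With the replicate number as a replicate block, which leaves 1 residual degree of freedom, 2 genes were called higher and 0 of the helicase genes. Only numbers 2 and 4 are shared. The correlation of deviations across genes was 0.397 for number 2 and 0.185 for number 4, but also 0.171 for Col-0 replicate 4 with smr1 replicate 1. With only 2 Col-0 libraries their deviations mirror each other, so the numbers are not shown to pair the samples.

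Medians of the other lists moved beyond the replicate spread in some settings; the cause was not tested. With first models only, origin recognition and CDC6 had 0.33 (8 genes) and cohesion 0.27. Leaving out 1 library gave 0.15 to 0.49 for origin recognition and CDC6, 0.15 to 0.53 for GINS and other helicase factors, 0.17 to 0.54 for the polymerases and 0.009 to 0.18 for cohesion, and the E2F list ran from -0.11 to 0.12. Reads per effective length give the deposited TPM by construction, so that alternative tests nothing. The scaling alternatives moved the median of all genes to between -0.01 and 0.03. Depth limits CDT1B most.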
